A study of Mus musculus with 13 samples.

Results

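Homologous recombination rebuilds a broken DNA duplex by copying an intact sister, and the Fanconi pathway unhooks crosslinks between the strands and hands the resulting break to the same machinery. The 42 genes described here encode the enzymes, mediators and signalling proteins of both routes. They were taken as a list of symbols from a table of 38279 symbols. No cutoff on measured values was applied, but the genes were chosen with earlier results of these data known. All 42 were found, 41 by the symbol itself and 1, Tp53bp1, as Trp53bp1 through a RefSeq synonym, and all 42 passed the filter on low counts that left 20101 genes for testing.

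The libraries were polyA RNA of whole mouse tissue: 6 mammary tumours from Cre-positive mice and 4 whole mammary glands from Cre-negative, wild-type mice. Mice of both groups were mated at 12 weeks, which in the Cre-positive animals induced excision of Fbxw7, the F-box protein through which an SCF ligase picks its targets. Tumours 1 to 6 came from animals of 25, 32, 39, 19, 53 and 25 weeks, and glands 1 to 4 from animals of 20, 20, 20 and 40 weeks. The labels used here name neither the promoter that drives Cre nor the excised exons, and genotype and tumour state differ together between the groups and cannot be told apart, while the age ranges overlap. Of 13 samples in the series, 3 of purified epithelium were not analysed here.

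In most tissues these repair genes are low in resting cells, and many are transcribed in late G1 and S phase, when E2F factors drive the genes of DNA synthesis and a sister chromatid becomes available as a template. Copying from resected DNA needs Brca1, Palb2 and Brca2, and in women inherited mutations in these genes predispose to breast cancer. A difference in their RNA between a tumour and a gland can therefore move with the number of cycling cells. Each gene was for that reason also set against a list of 32 mitosis genes.

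The tissues behind the libraries differed. Total counts ranged from 13723065 in gland 3 to 48353114 in gland 2. Salivary markers (a list of 12) took up 50.3% of tumour 1 and 18.6% of tumour 6, against at most 0.0392% in tumours 2 to 5. Skeletal muscle markers held 7.07% of the counts of gland 4, whose mitochondrial transcripts made up 37.5%. Luminal epithelial markers summed to 1752 to 4084 CPM, that is, counts scaled to a common library size, in tumours and 458 to 766 CPM in glands, and adipocyte markers to 26.3 to 1172 CPM in tumours and 4168 to 26277 CPM in glands. Lymphocyte markers summed to 614 CPM in gland 2 and 557 CPM in gland 3, against 21.3 CPM in gland 1, 1.78 CPM in gland 4 and 3.95 to 99.9 CPM in tumours. In whole tissue, fewer cells of a type and less RNA per cell cannot be told apart, and the part of these markers in the results below was not tested.

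Of the 42 repair genes, 14 were higher in tumours than in glands and none was lower (quasi-likelihood test of edgeR, p below 0.05 after Benjamini-Hochberg adjustment), against 6.89% of all tested genes higher and 8.19% lower. At an unadjusted p below 0.05, 22 were higher and 0 lower. Shares of all genes at an unadjusted p are not given here or below, so such counts have no background. The median log2 fold change of the 42 was 1.21, against 0.17 over all genes tested. It was above 0 in 35 of the 42, against 11254 of the 20101 genes tested. In 11 of the 42 every tumour was above every gland, against 6.54% of all genes. No repair gene had every tumour below every gland, against 7.50% of all genes. The 14 genes that rose in this fit lie in every role below except that of Rad51b, Rad51c, Rad51d, Xrcc2 and Xrcc3. Rad51b and Rad51c passed with DESeq2.

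**Figure D1:**
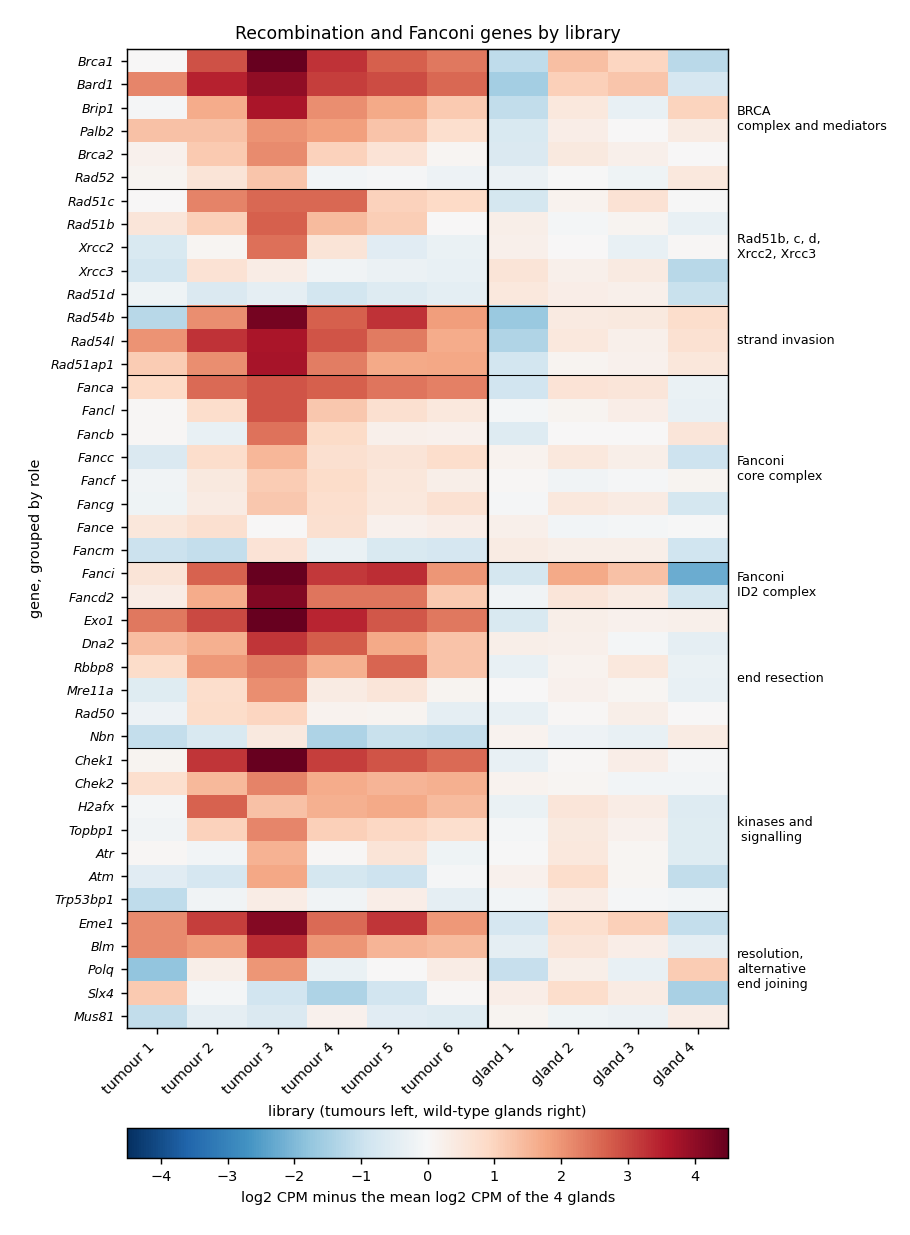
Level of each of the 42 genes in each library, as log2 CPM minus the mean log2 CPM of the 4 glands, with rows grouped by role and tumours left of glands. Tumour 3 is the highest tumour for 34 of the 42 genes, tumour 1 the lowest for 24 and tumour 6 the lowest for 11.

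Promoter letters were read for the 33 of 42 genes with an entry in the RefSeq promoter table, whose windows run from 250 bases before to 50 after each start site (GRCm38.p6). An E2F form, any of TTTCCCGC, TTTGGCGC, TTTCGCGC or TTTGCCGC on either strand, was found in 6 of the 33 genes (18.2%) and in 2.61% of all 27018 genes with such a window (2.27% of 32841 windows, since some genes have several). The 6 were Bard1, Brca2, Chek2, Fancg, Rad51c and Topbp1. They hold 2 of the 10 promoters of genes that rose and 4 of the 23 of genes that did not pass. The CHR element of G2 and M genes, TTTGAA on either strand, was in 4 of the 33 (12.1%), against 20.2% of all genes, and CCAAT on either strand in 18 (54.5%), against 41.1% of all genes. No form contains another. Promoters of 4 genes are printed because they contrast genes that rose with one that did not; capitals mark E2F and CHR letters and other bases are in lower case. Bard1, at chr1:71102923-71103222 on the minus strand, holds an E2F form at base -209 and a CHR at -242 from its start site. Chek2, at chr5:110839733-110840032 on the plus strand, holds an E2F form on its minus strand at -152. Chek1, at chr9:36726609-36726908 on the minus strand, rose furthest of the 42 and holds no complete E2F or CHR form in this window. Its window ends in gcgggaa, so GCGGGAAA, the reverse letters of TTTCCCGC, may be cut off at the edge. Atm, at chr9:53536622-53536921 on the minus strand, holds neither form and averaged 10.6 CPM in tumours and 10.6 CPM in glands. A match is only letters in a window, and the absence of these letters says nothing about E2F.
Bard1: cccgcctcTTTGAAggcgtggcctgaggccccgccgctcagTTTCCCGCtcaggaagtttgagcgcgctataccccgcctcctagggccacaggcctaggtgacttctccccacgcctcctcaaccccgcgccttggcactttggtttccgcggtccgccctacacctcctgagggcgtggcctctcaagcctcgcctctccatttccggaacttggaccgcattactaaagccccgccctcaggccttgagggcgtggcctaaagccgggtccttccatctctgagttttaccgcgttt
Chek2: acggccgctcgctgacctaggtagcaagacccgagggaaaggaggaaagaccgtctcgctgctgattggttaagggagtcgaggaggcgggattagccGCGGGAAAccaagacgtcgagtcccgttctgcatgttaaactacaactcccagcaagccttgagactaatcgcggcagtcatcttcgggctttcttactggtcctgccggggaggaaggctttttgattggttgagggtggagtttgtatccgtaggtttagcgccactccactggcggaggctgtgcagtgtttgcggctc
Chek1: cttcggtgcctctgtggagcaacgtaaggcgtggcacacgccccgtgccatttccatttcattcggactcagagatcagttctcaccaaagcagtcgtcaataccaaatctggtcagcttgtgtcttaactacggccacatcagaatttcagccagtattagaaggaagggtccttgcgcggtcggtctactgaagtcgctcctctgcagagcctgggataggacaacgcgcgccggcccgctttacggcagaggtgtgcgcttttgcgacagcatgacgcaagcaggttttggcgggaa
Atm: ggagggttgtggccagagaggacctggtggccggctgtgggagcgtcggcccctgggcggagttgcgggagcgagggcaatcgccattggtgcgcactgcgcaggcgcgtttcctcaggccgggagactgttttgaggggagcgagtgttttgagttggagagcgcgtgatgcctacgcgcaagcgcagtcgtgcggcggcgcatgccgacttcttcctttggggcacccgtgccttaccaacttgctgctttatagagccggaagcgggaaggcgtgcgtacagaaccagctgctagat

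In the BRCA group, the ligase pair and the mediators of strand exchange on resected DNA, 2 of 6 genes rose, and the median log2 fold change was 1.72. Bard1, the RING partner that makes Brca1 an active ubiquitin ligase, was between 3.29 and 11.6 CPM in tumours (median 5.85), against 0.200, 1.47, 1.67 and 0.382 CPM in glands 1 to 4. Every tumour exceeded every gland, with a log2 fold change of 2.79 ± 0.68 (standard error here and below; adjusted p = 0.0225, edgeR). Palb2, which bridges Brca1 to Brca2, was between 2.82 and 6.73 CPM in tumours (median 4.14), against 0.999, 2.01, 1.67 and 2.10 CPM in glands. It rose by a log2 fold change of 1.46 ± 0.42 (adjusted p = 0.0389, edgeR), again without overlap.

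Brca1 itself had a fold change as large as that of Bard1, but a wider spread. It was between 0.959 and 26.7 CPM in tumours (median 6.79), against 0.399, 2.51, 1.89 and 0.382 CPM in glands, with 9.27 ± 8.97 CPM in tumours and 1.30 ± 1.08 CPM in glands (SD, n = 6 and 4). In Brca1, 5 of the 6 tumours were above all glands and tumour 1 lay below glands 2 and 3. The log2 fold change was 2.82 ± 0.90 with an adjusted p of 0.0549 (edgeR), which misses the threshold. It passed with DESeq2 (adjusted p = 0.00368), and in edgeR with upper-quartile scaling (adjusted p = 0.0465) and with tumours 1 and 6 left out (adjusted p = 0.0219). It missed with RLE scaling (adjusted p = 0.0567, edgeR) and limma-voom (adjusted p = 0.0613). With 1 library left out at a time, it passed in 1 of 10 fits.

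Brca2, the central mediator of recombination on single-stranded DNA, moved less. It was between 4.07 and 16.7 CPM in tumours (median 6.80), against 2.40, 5.14, 4.40 and 3.82 CPM in glands, and 4 of 6 tumours exceeded all glands. Its log2 fold change of 1.00 ± 0.47 did not pass (adjusted p = 0.159, edgeR). Brip1, the helicase bound by the Brca1 BRCT repeats, had a log2 fold change of 1.99 and Rad52, a strand-annealing protein, 0.33, and neither passed.

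The group of Rad51b, Rad51c, Rad51d, Xrcc2 and Xrcc3 assists strand exchange, and 0 of 5 passed in the main fit, with a median log2 fold change of 0.76. They differed among themselves: Rad51c had a log2 fold change of 1.79 (adjusted p = 0.0606), Rad51b 1.41 and Xrcc2 0.76, while Xrcc3 had -0.18 and Rad51d -0.60 (adjusted p = 0.203, edgeR). With DESeq2, Rad51c (adjusted p = 0.0111) and Rad51b (adjusted p = 0.0369) passed. With RLE scaling they did not (adjusted p = 0.0640 and 0.108, edgeR). Rad51d was 6.97 to 10.9 CPM in tumours, against 17.0, 15.2, 14.4 and 6.17 CPM in glands. All tumours lay below glands 1 to 3 and above gland 4, and without gland 4 the log2 fold change was -0.91 (adjusted p = 0.0465, edgeR). Of the 10 fits with 1 library left out, Rad51d passed only in this 1, which omits its lowest gland.

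The genes of proteins that promote strand invasion, Rad54l, Rad54b and Rad51ap1, had a median log2 fold change of 2.66, and 2 of 3 rose. Rad54l, the translocase that drives strand invasion, was between 5.02 and 20.2 CPM in tumours (median 9.54), against 0.571, 2.12, 1.78 and 2.48 CPM in glands. Its log2 fold change was 2.66 ± 0.56 (adjusted p = 0.0137, edgeR), with no overlap. Rad51ap1, which stimulates the formation of joints between duplexes, was between 3.15 and 19.0 CPM in tumours (median 5.53), against 0.770, 1.51, 1.61 and 2.03 CPM in glands. It also separated the groups, with a log2 fold change of 2.34 ± 0.58 (adjusted p = 0.0246, edgeR). Rad54b had 2.72 ± 0.94 (adjusted p = 0.0706), with tumour 1 at 0.206 CPM, a count of 3; it shares 35.8% of its exonic bases with Fsbp on the same strand, so its reads are uncertain.

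The Fanconi core complex is the ubiquitin ligase that acts on Fancd2 and Fanci, and 1 of its 8 genes rose; the median log2 fold change was 0.61. Fanca, a scaffold of the complex, was between 1.64 and 6.43 CPM in tumours (median 5.06), against 0.457, 1.34, 1.28 and 0.699 CPM in glands. Tumour 1 was the lowest tumour and still exceeded every gland, and the log2 fold change was 2.33 ± 0.52 (adjusted p = 0.0174, edgeR). Fancl, the catalytic RING subunit, had a log2 fold change of 1.33 (adjusted p = 0.109), and Fancb, Fancc, Fance, Fancf and Fancg had 0.42 to 0.90. Fancm, the translocase that anchors the complex to DNA, had -0.49, and none of these passed.

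In the pair that the core complex modifies, 1 of 2 genes rose (median log2 fold change 2.66). Fancd2 was between 1.03 and 15.1 CPM in tumours (median 3.52), against 0.713, 1.19, 1.06 and 0.445 CPM in glands. Tumour 1 lay below glands 2 and 3 and the other tumours above all glands, with a log2 fold change of 2.52 ± 0.77 (adjusted p = 0.0477, edgeR), and 1.76 without tumour 3. Fanci, its partner, had a log2 fold change of 2.81 ± 1.03 (adjusted p = 0.0860) and a count of 1 in gland 4. It shares 16.0% of its exonic bases with Polg on the opposite strand, and the kit does not mark strand.

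Resection trims break ends to single strands, and 3 of the 6 resection genes rose (median log2 fold change 1.32). They were the long-range nucleases and Rbbp8, and not the Mre11 complex that starts the cut. Exo1, a processive exonuclease, was between 4.66 and 28.0 CPM in tumours (median 6.74), against 0.514, 1.05, 1.00 and 1.02 CPM in glands. Every tumour was above every gland, with a log2 fold change of 3.49 ± 0.65 (adjusted p = 0.00879, edgeR), and 2.87 without tumour 3.

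Dna2, the nuclease and helicase of the second long-range route, was between 2.96 and 11.4 CPM in tumours (median 3.83), against 1.46, 1.39, 1.11 and 0.890 CPM in glands. Its log2 fold change was 2.19 ± 0.52 (adjusted p = 0.0213, edgeR). Rbbp8, also called CtIP, which stimulates the Mre11 nuclease, was between 12.4 and 42.6 CPM in tumours (median 23.9), against 5.45, 7.81, 9.58 and 5.66 CPM in glands. Its log2 fold change was 1.85 ± 0.39 (adjusted p = 0.0141, edgeR), and neither gene overlapped between the groups.

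The 3 subunits of the Mre11 complex did not pass. Mre11a had a log2 fold change of 0.79, Rad50 0.31 and Nbn -0.69 ± 0.38 (adjusted p = 0.217, edgeR). Nbn was 7.32 to 26 CPM in tumours, against 21.7, 16.4, 15.4 and 25.2 CPM in glands. Only tumour 3 exceeded any gland, and without it the log2 fold change was -1.05 (adjusted p = 0.0273, edgeR). Of the 10 fits with 1 library left out, Nbn passed only in this 1, which omits its highest tumour.

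Among kinases and signalling proteins, 3 of 7 rose (median log2 fold change 1.09), both effector kinases among them. Chek1, the S and G2 checkpoint kinase that Atr activates, was between 1.23 and 43.2 CPM in tumours (median 9.17), against 0.885, 1.17, 1.39 and 1.08 CPM in glands. Here 5 tumours exceeded every gland by a wide margin and tumour 1 lay among the glands; the log2 fold change was 3.57 ± 0.84 (adjusted p = 0.0200, edgeR), and 2.72 without tumour 3. Chek2, the effector of Atm, was between 5.62 and 16.0 CPM in tumours (median 10.02), against 3.77, 3.56, 3.06 and 3.05 CPM in glands. All tumours were above all glands and the log2 fold change was 1.61 ± 0.35 (adjusted p = 0.0149, edgeR).

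H2afx, the histone variant that Atm and Atr phosphorylate around breaks, was between 10.1 and 67.4 CPM in tumours (median 30.9), against 8.76, 15.5, 13.5 and 7.19 CPM in glands. Tumour 1 lay among the glands, and the log2 fold change of 1.58 ± 0.47 passed narrowly (adjusted p = 0.0433, edgeR). Topbp1, which activates Atr, had 1.09 and did not pass (adjusted p = 0.0929).

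The apical kinases did not pass. Atm was between 4.97 and 31.9 CPM in tumours (median 6.12), against 11.0, 16.7, 10.1 and 4.45 CPM in glands. Tumour 3 stood above every gland and the other tumours were below glands 1 to 3, giving a log2 fold change of 0.0072 ± 0.59 (adjusted p = 0.994, edgeR) and -0.72 without tumour 3 (adjusted p = 0.210). Atr was between 11.8 and 39.8 CPM in tumours (median 14), against 13.4, 18.7, 14.2 and 9.22 CPM in glands, with a log2 fold change of 0.43 ± 0.40 (adjusted p = 0.460, edgeR). Trp53bp1, which limits resection and favours end joining, had -0.14 ± 0.31 (adjusted p = 0.773).

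Of 5 genes that resolve joints or join ends by another route, 2 rose (median log2 fold change 0.32). Blm, the helicase that dissolves double Holliday junctions and also feeds resection, was between 6.69 and 25.5 CPM in tumours (median 9.77), against 1.85, 3.61, 3.06 and 1.84 CPM in glands. Eme1, the partner subunit of the Mus81 nuclease, was between 1.39 and 6.38 CPM in tumours (median 2.65), against 0.171, 0.578, 0.724 and 0.127 CPM in glands, the last a count of 2. Both separated the groups, with log2 fold changes of 2.17 ± 0.47 for Blm (adjusted p = 0.0154, edgeR) and 2.89 ± 0.70 for Eme1 (adjusted p = 0.0219, edgeR).

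Mus81 itself had a log2 fold change of -0.47 ± 0.30 (adjusted p = 0.286), so the 2 subunits of this nuclease had fold changes of opposite sign, a difference that was not tested. Slx4, the scaffold that docks Mus81, had -0.30, and Polq, the polymerase of theta-mediated end joining, 0.32. Neither passed.

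Leaving out 1 library at a time, 3 of the 14 genes kept an adjusted p below 0.05 in all 10 fits, namely Rad54l, Exo1 and Chek2. Without gland 1, which had the lowest mitosis index (below), the other 11 no longer passed, leaving 3 repair genes higher, against 2.04% of all genes. The count was 7 without gland 2 (2.60% of all genes), 9 without gland 3 (2.77%), 9 without gland 4 (4.15%) and 19 without tumour 1 (8.78%). Palb2, Fancd2 and H2afx were the least stable, passing in 2, 2 and 1 of the 10 fits. With tumours 1 and 6 left out, the libraries with salivary transcripts, 22 of 42 were higher and 0 lower, against 10.1% of all genes higher. With age as a covariate 9 were higher (4.52% of all genes), and with DESeq2 20 (13.5%). Against gland 4 alone, the oldest gland, 0 passed with edgeR (0.0201% of all genes), and 9 were higher at an unadjusted p below 0.05. The genes called lower in any fit were Rad51d without gland 4 (7.22% of all genes lower) or without tumours 1, 6 and gland 4 (13.5%), and Nbn without tumour 3 (7.34%).

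The mitosis index was the mean log2 CPM of the 32 mitosis genes in a library. It was 1.94, 4.59, 6.14, 4.68, 4.46 and 3.80 in tumours 1 to 6, against 0.31, 2.01, 1.71 and 0.38 in glands 1 to 4, a difference of 3.17 between the means (exact permutation test, two-sided p = 0.0143, where the smallest possible is 0.00476). Tumour 1 lay below gland 2. In the list, 30 of 32 genes rose, with a median log2 fold change of 3.29, a median that only Exo1 and Chek1 of the repair genes exceeded; Mki67, a marker of cycling cells, had 2.55 ± 0.90 (adjusted p = 0.0766, edgeR).

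With libraries scaled by the mitosis genes in place of all genes, no repair gene was higher in tumours and 21 of 42 were lower, against 0.502% of all genes higher and 62.2% lower. At an unadjusted p below 0.05, 0 were higher and 24 lower, with no share of all genes beside these counts. The mitosis genes set this scale, so their own median lies near 0 by construction. The median log2 fold change of the repair genes on that scale was -2.09, between -2.69 for all genes and 0.085 for the mitosis genes. These values say how far each gene fell short of the rise of the mitosis genes, and the repair genes were called lower no more often than all genes.

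On this scale the log2 fold changes of the repair genes ran from -3.89 to 0.15. Exo1 had a log2 fold change of 0.15 ± 0.85, Bard1 0.091 ± 0.89 and Eme1 0.067 ± 0.97. Chek1 had -0.35, Rad54l -0.46, Fanci -0.48, Brca1 -0.50, Blm -0.56 and Fanca -0.70. All of these were within 1 standard error of 0, and a p that misses the threshold does not show that they moved alike with the mitosis genes.

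At the other end, Nbn had -3.89 ± 0.88 (adjusted p = 0.00371, edgeR), Mus81 -3.62 (adjusted p = 0.00433), Fancm -3.57 (adjusted p = 0.00605) and Polq -3.49 (adjusted p = 0.00820). Xrcc3 had -3.28 (adjusted p = 0.0110), Trp53bp1 -3.27 (adjusted p = 0.00427), Rad51d -3.13 (adjusted p = 0.00912) and Atm -3.07 (adjusted p = 0.00690). Brca2, with -2.13 (adjusted p = 0.0330), was close to the median of the repair genes. In the Fanconi core 7 of 8 genes were lower on this scale, all but Fanca, where 62.2% of all genes were lower. With 1 library left out at a time, Fancm was lower in all 10 fits, Fancc in 9, Fancg in 6, Fancf in 5, and Fancb, Fance and Fancl in 4 each.

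The choice of proliferation list mattered. An index from 37 DNA replication genes differed by 1.66 between the group means, against 3.17 for the mitosis index, so scaling by it lowers fold changes less. With that list as the index, 5 of the 42 were lower (Nbn, Fancm, Mus81, Trp53bp1 and Atm) and 0 higher. Of all genes, 26.4% were lower and 1.21% higher. With the mitosis index as a covariate in place of an offset, 0 passed in either direction with edgeR. Of all genes, 0.0348% were lower and 1.34% higher in that fit. At an unadjusted p below 0.05, 5 repair genes were lower and 2 higher, with no share of all genes beside these counts. Leaving out tumour 1 gave 31 lower (88.8% of all genes) and leaving out gland 1 gave 12 (41.3%), while without tumours 1 and 6 there were 29 (89.7%).

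**Figure D2:**
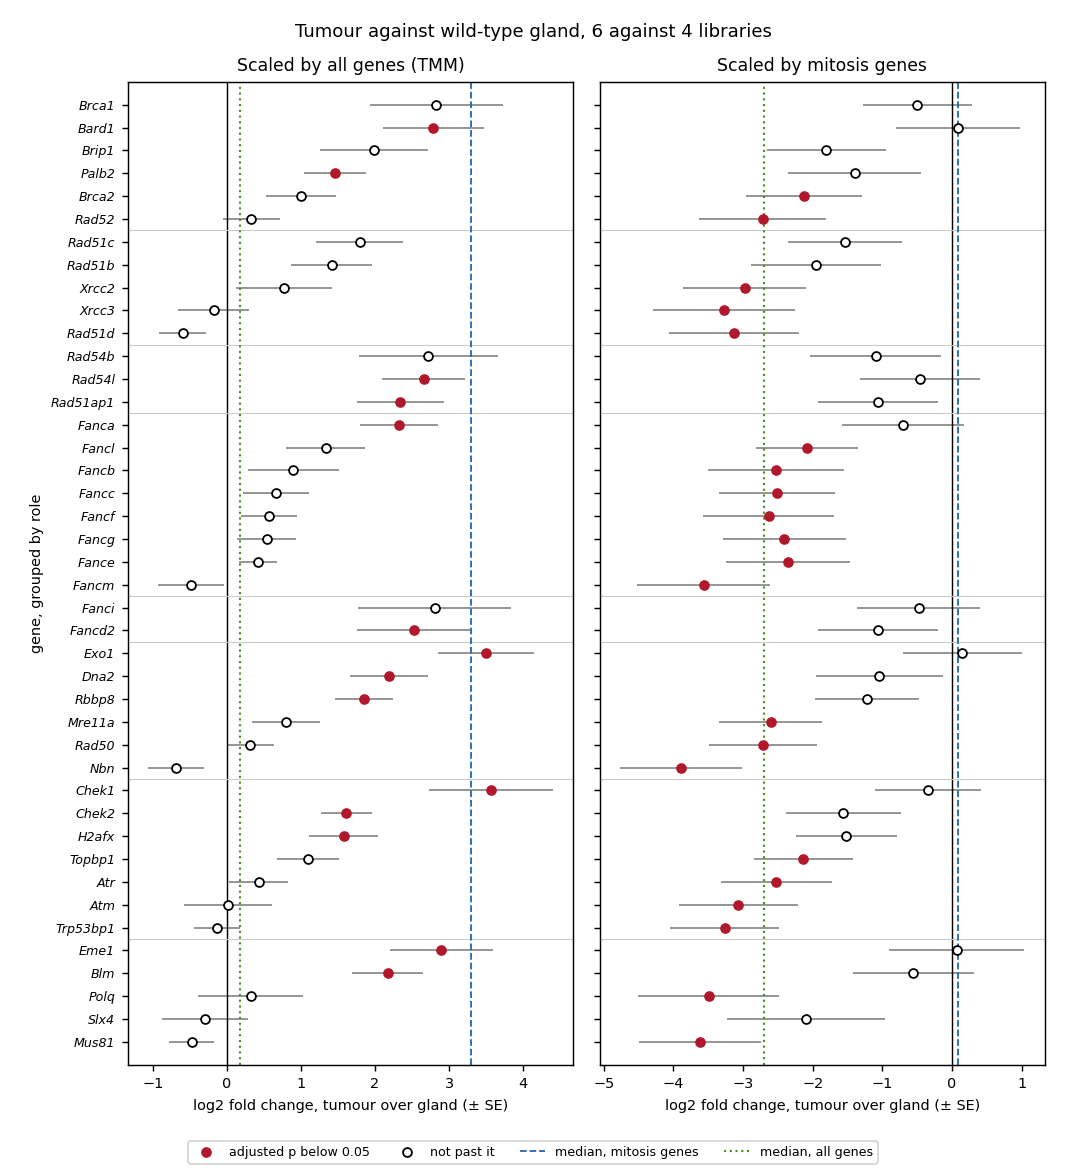
Log2 fold changes, tumour over gland, with standard errors for the 42 genes, scaled by all genes on the left and by mitosis genes on the right; red points passed and open points did not. The dashed and dotted lines are the medians of the mitosis genes (3.29 left, 0.085 right) and of all genes (0.17 left, -2.69 right).

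Tumours could also be compared with each other by their own mitosis index. In a fit of the slope on that index over the 6 tumours, 5 of 42 repair genes rose with it and 0 fell, against 1.61% of 19510 genes rising and 1.33% falling. At an unadjusted p below 0.05, 24 rose and 1, Slx4, fell, with no share of all genes to set beside these counts. The 5 were Chek1 with a slope of 1.19 ± 0.13 log2 units per unit of index (adjusted p = 0.0267, edgeR), Brca1 with 1.12 ± 0.14 (adjusted p = 0.0276), Fanci with 1.11 (adjusted p = 0.0382), Brip1 with 0.89 (adjusted p = 0.0398) and Topbp1 with 0.53 (adjusted p = 0.0435). A slope of 1 means that a gene changed as many log2 units as the index, and the median slope was 0.45 for the repair genes, 0.99 for the mitosis genes and -0.035 for all genes. The mitosis genes make up the index, so their median near 1 follows from its definition. Of the 42 slopes, 39 were above 0, against 9206 of the 19510 genes in the fit.

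Of these 5, Chek1 also passed between tumours and glands, and Brca1, Brip1, Fanci and Topbp1 did not. Exo1, whose tumours all exceeded all glands, had a slope of 0.59 ± 0.17 that did not pass (adjusted p = 0.0956, edgeR). The slopes of Atm (0.46), Atr (0.32), Trp53bp1 (0.36) and Rad51d (-0.086) did not pass. The 5 calls rest on all 6 tumours: with any 1 left out no gene in the table passed. In those fits 10 to 26 repair genes had a positive slope at an unadjusted p below 0.05, the fewest without tumour 3. These counts have no share of all genes beside them and do not stand in for calls. The tumours with the lowest index, 1 and 6, are those with 50.3% and 18.6% salivary counts, and the 7 salivary markers in the fit had a median slope of -5.18; their part in the slopes was not tested. Without both tumours, 0 repair genes passed with edgeR and 18 had a positive slope at an unadjusted p below 0.05, again without a background. With the replication list as the index 8 rose, against 2.21% of all genes.

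**Figure D3:**
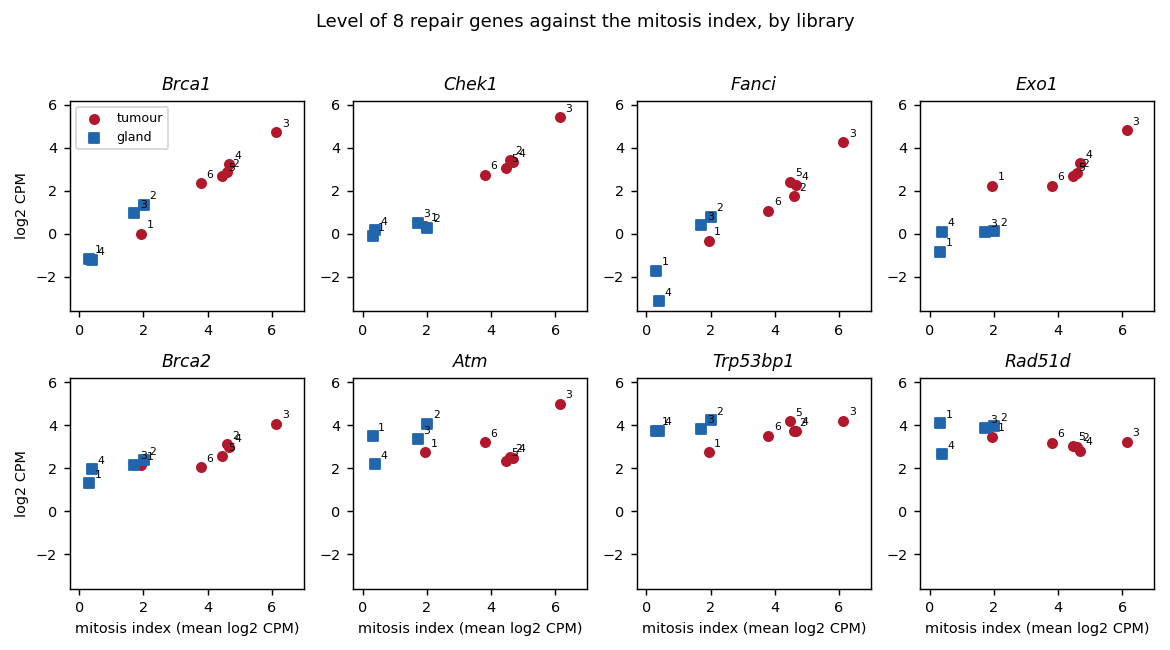
Log2 CPM of 8 repair genes against the mitosis index in each of the 10 libraries, with tumours as circles and glands as squares, numbered. Brca1, Chek1 and Fanci climb with the index among tumours up to tumour 3, while Rad51d stays nearly level and Atm is high in tumour 3 alone.

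Tumour 1, whose index of 1.94 lay in the range of the glands, still exceeded every gland in 14 of the 42 genes, against 33.2% of all genes, so that count is near the background. They included Bard1, Palb2, Rad51ap1, Rad54l, Fanca, Rbbp8, Exo1, Dna2, Chek2, Blm and Eme1. In these every tumour exceeded every gland, as given above, so tumour 1 did so by definition. The others were Rad51b, Fance and Slx4, which did not pass between tumours and glands.

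Other repair routes were set beside these genes through lists of the usual members. In DNA replication, 17 of 37 genes were higher and 0 lower, with a median log2 fold change of 1.90; Tyms, the thymidylate synthase, had 2.50 (adjusted p = 0.00991), Rfc5, a clamp loader subunit, 1.93 (adjusted p = 0.0118) and Orc1, of the origin recognition complex, 3.33 (adjusted p = 0.0152, edgeR). In base excision repair 2 of 15 were higher, with a median of 0.59. They were Neil3, a glycosylase, with 2.87 (adjusted p = 0.0280), and Ung, the uracil glycosylase, with 1.15 (adjusted p = 0.0342, edgeR).

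In mismatch repair 0 of 7 passed (median 0.45), and in classical end joining 0 of 9 (median -0.27). No test of the difference between lists was made.

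**Figure D4:**
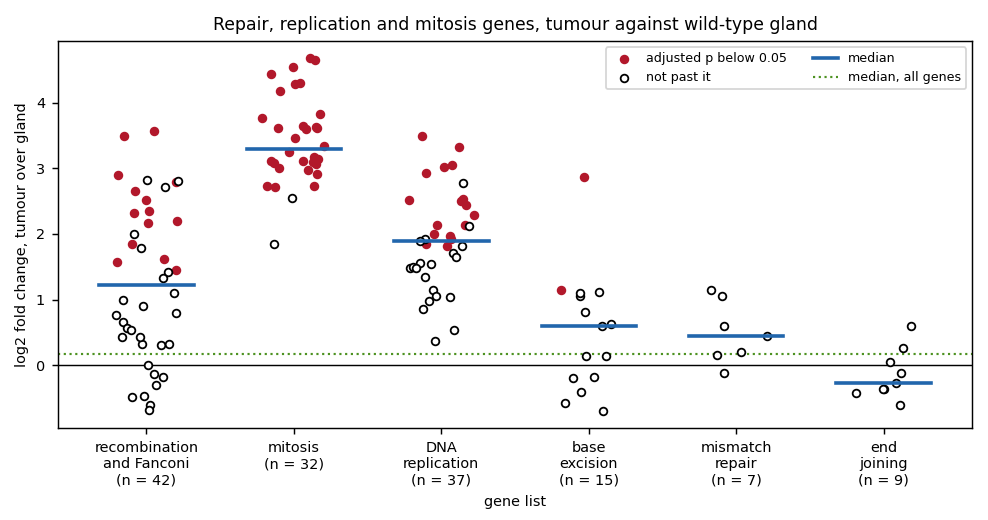
Log2 fold changes, tumour over gland, of the recombination and Fanconi genes and of 5 other lists; each point is a gene, red where it passed, and blue bars are medians. The median of 1.21 for the repair genes lies below those of mitosis (3.29) and DNA replication (1.90) and above those of base excision (0.59) and end joining (-0.27).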

How the data were processed

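The authors' deposited table holds whole-number read counts per gene symbol in 10 libraries. Whole tissue was extracted with TRIzol and polyA libraries were made with NEBNext Ultra, per the labels' protocols; that kit is not a strand-marking one. Salmon 1.2.0, DESeq and the mm9 build appear in the submitters' processing notes with no role; the sources used here do not give the step from transcripts to genes.

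Counts were filtered with filterByExpr (20101 of 38279 symbols kept), TMM-scaled and compared, tumour against gland without a covariate, by the quasi-likelihood F test (edgeR 4.0.16, R 4.3.3). Two-sided p-values were Benjamini-Hochberg adjusted over all genes and read against 0.05. CPM are TMM-scaled, and log2 CPM use a prior count of 2. A standard error is the fold change (log2) over the root of F. The biological coefficient of variation was 0.707. TMM factors were lowest in tumour 1 (0.422) and gland 4 (0.580). The mitosis index entered either as an offset or, in the 6 tumours, as the slope term over 19510 genes with a mean tumour count of at least 10. The code was tested on simulated data. The result of 1 further repair list is not reported here.

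Alternatives tried were scaling by RLE or upper quartile, limma-voom (limma 3.58.1), DESeq2 1.42.0, no filter, a filter of 1 CPM in 4 libraries, age as a covariate, the replication list as index, and libraries left out. Values in each gland, with the lowest, median and highest of the tumours, are given for genes past the threshold and for Brca1, Brca2, Fancd2, Atm, Atr and H2afx. Gland values and the tumour range of Rad51d and Nbn were added after they were seen. The genes, lists, tests and this rule were chosen with earlier results of these data known.

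The identifiers of glands 1 to 3 differ in form from those of the other libraries; sequencing runs were not known here, so run and group cannot be told apart. Separate animals are not stated for the libraries, and p-values then cover only the spread between them. No pair was a copy: chi-square per degree of freedom was at least 37.8. By GENCODE vM21 names, 20 of the 42 genes share exonic bases with another gene, and 9 share at least 10% of theirs: Rad54b, Fancc, Fanci, Rad54l, Fancf, Trp53bp1, Fancl, Fanca and H2afx.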

Additional observations from a re-analysis of the deposited data

Results flagged for a closer look

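In 84 groups of values (42 genes in tumours and in glands), 6 held a library far from the others by Dixon's criterion on log2 CPM, and chance flags about 1 group in 20. The value given is the gap to the nearest library over the range of the group. Among tumours, tumour 1 was low in Fanca (0.721) and tumour 3 was high in Atm (0.671). Among glands, gland 4 was low in Rad51d (0.832) and in Fancm (0.894), and gland 1 was low in Rad54b (0.842) and in Exo1 (0.939).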

How the results depend on the processing

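Low counts limit several genes, such as Fanci and Eme1 in gland 4, and of the single libraries gland 1 lowered the number of genes higher most when left out. For tumour against gland, the number of repair genes higher was 9 with age as a covariate, 22 without tumours 1 and 6, and 0 against gland 4 alone (9 at an unadjusted p below 0.05, with the lone gland assumed to vary like the tumours). It was 3 to 19 with 1 library left out, where 2.04% to 8.78% of all genes were higher. Over the other alternatives it was 11 to 20 (2.56% to 13.5% of all genes), with 20 for DESeq2. The number lower was 1 (Rad51d) without tumours 1, 6 and gland 4, and 0 to 1 with 1 library left out. Upper-quartile scaling moved the median of all genes from 0.17 to 0.32, a shift of 0.16. Relative to mitosis genes, the number lower was 5 with the replication list (26.4% of all genes) and 0 with the index as covariate (0.0348%). With 1 library left out it was 12 to 31 (41.3% to 88.8%). For the slope, the number rising was 8 with the replication list (2.21% of all genes). It was 0 without tumours 1 and 6 and 0 to 0 with 1 tumour left out, fits in which no gene of the table rose. The cause of these changes was not tested.

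No paired analysis was possible because the groups share no replicate numbers in the labels that pair libraries.

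Signs turned in genes that had not passed, apart from Fance, which was lower relative to mitosis genes (-2.35) and was not with the index as covariate. For tumour against gland, Atm was -0.44 with limma-voom, -0.032 without a filter, -0.022 with age and -0.24 without tumours 1, 6 and gland 4. With age, Slx4 was 0.19 and Polq -0.043. Without tumours 1 and 6, Xrcc3 was 0.0069 and Trp53bp1 0.069. Against gland 4 alone, Rad52 was -0.045, Rad51d 0.55, Xrcc3 1.38, Fancm 0.57, Trp53bp1 0.11, Slx4 1.41 and Polq -0.51. With 1 library left out, Atm ranged from -0.72 to 0.31, Xrcc2 from -0.095 to 0.93 and Polq from -0.33 to 0.77.

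Relative to the replication list, Brca1 was 0.90, Rad51ap1 0.44, Rad54l 0.95, Rad54b 0.57, Fanca 0.71, Fancd2 0.47, Fanci 0.86, Rbbp8 0.24, Dna2 0.43, Chek1 1.33 and Blm 0.70. With the index as covariate, Palb2 was 0.85, Rad51ap1 0.47, Rad54l 1.31, Fanca 0.59, Fance 0.70, Rbbp8 0.59, Dna2 0.86, Chek2 0.70, H2afx 0.035, Blm 1.22 and Slx4 0.53. Relative to mitosis genes without tumours 1 and 6, Bard1 was -0.45, Exo1 -0.35 and Eme1 -0.41, and with 1 library left out Bard1 ranged from -0.38 to 0.37, Exo1 from -0.35 to 0.56, Eme1 from -0.45 to 0.31 and Rad54l from -1.04 to 0.27. Slopes without tumours 1 and 6 were 0.15 for Rad51d, -0.50 for H2afx and -0.26 for Mus81. With 1 tumour left out, slopes ranged from -0.20 to 0.034 for Rad51d, -0.18 to 0.029 for Fance, -0.14 to 0.92 for Atm, -0.20 to 0.81 for H2afx, -0.11 to 0.86 for Blm and -0.076 to 0.35 for Mus81.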
